A study of Mus musculus with 28 samples.

Results

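Leukocytes are caught from flowing blood by selectins, and the genes described here are those of 6 proteins on either side of that contact. They are Gcnt1, St3gal4, Fut7 and Selplg, which make the ligand carried by the leukocyte, and Selp and Sele, which encode the selectins of the vessel wall. Selp and Sele are 2 of the 6 although they are receptors rather than ligands. The 6 genes were found by symbol among 49585 features of a liver count table, and all 6 passed the filter on low counts, which kept 21583 genes. Gcnt1 was chosen by its difference in response between the sexes in these same libraries, so its values are a description with no test. The other 5 were selected as genes of the same pathway, with earlier results of these data known.

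P-selectin, the product of Selp, and E-selectin, the product of Sele, are displayed by activated endothelium, and P-selectin also by platelets. Both bind the tetrasaccharide sialyl Lewis x, which leukocytes carry on O-linked glycans of PSGL-1, the product of Selplg. Gcnt1 encodes the core 2 branching enzyme that starts the branch on which this sugar is built, St3gal4 a sialyltransferase that caps the branch, and Fut7 the fucosyltransferase that completes it. In liver the sinusoids are known for leukocyte capture that depends little on selectins, while larger vessels use them.

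The data were read counts of 28 liver libraries from C57BL/6JOlaHsd mice labelled 5 to 7 months old, with 7 libraries each from WT and SIRT6-tg males and from WT and SIRT6-tg females. SIRT6-tg mice overexpress SIRT6, a deacylase of the sirtuin family, in the whole body, and per the study's methods all came from 1 transgenic line, so line and transgene cannot be told apart. WT mice were littermates without the transgene, and all 4 groups were fasted before the livers were taken. Total counts per library lay between 18758863 and 35393069. Sirt6, the overexpressed gene, had normalized counts of 44.8 to 85.9 in male WT, 5263 to 9517 in male SIRT6-tg, 47.9 to 165 in female WT and 434 to 1335 in female SIRT6-tg livers, so the Sirt6 transcript level differed between male and female SIRT6-tg livers. The 8 hepatocyte markers, Alb among them, summed to at least 2646242 normalized counts in every library. Normalized counts are counts divided by the TMM-scaled library size, a scaling that sets most genes equal between libraries. Whole liver was measured, so fewer cells of a type and less RNA per cell cannot be told apart in any value below.

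The stretches just upstream of the start sites are shown for the genes that were lower in male SIRT6-tg livers and, beside them, for Selp. Each is 250 bases that end at the base before a RefSeq start site, on the strand of the gene, in GRCm38.p6. Windows that overlap an annotated exon are left out, as is Selplg, which has no window in the table used. Capitals mark matches on either strand to 7 short motifs: the T-box core GGTGTGA, the Runx core TGTGGT, the Ets core AGGAAGT, the gamma-activated site TTCNNNGAA, the TATA box TATAAA, the GC box GGGCGG and the AP-1 site TGANTCA.
Gcnt1, first start, chr19:17372845-17373094: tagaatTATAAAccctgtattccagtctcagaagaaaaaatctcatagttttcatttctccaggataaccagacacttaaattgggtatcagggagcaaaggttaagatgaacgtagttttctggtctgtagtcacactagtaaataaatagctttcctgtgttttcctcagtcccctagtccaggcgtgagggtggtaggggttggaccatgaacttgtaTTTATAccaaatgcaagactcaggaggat
Gcnt1, second start, chr19:17356668-17356917: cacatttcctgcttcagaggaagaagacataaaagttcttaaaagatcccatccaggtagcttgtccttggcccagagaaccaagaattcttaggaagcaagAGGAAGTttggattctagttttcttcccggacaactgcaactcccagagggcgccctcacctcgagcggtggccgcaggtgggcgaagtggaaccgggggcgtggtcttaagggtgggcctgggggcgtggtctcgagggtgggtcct
Fut7, chr2:25422992-25423241: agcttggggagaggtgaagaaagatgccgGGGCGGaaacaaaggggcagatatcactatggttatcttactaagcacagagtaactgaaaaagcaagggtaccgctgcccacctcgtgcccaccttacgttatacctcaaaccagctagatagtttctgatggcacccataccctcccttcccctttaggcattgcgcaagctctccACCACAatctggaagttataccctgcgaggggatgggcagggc
Sele, chr1:164047984-164048233: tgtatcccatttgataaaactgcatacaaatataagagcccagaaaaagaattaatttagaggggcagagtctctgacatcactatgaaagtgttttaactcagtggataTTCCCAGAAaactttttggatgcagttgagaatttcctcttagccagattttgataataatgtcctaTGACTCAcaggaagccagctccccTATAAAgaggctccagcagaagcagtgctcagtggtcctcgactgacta
Selp, chr1:164115014-164115263: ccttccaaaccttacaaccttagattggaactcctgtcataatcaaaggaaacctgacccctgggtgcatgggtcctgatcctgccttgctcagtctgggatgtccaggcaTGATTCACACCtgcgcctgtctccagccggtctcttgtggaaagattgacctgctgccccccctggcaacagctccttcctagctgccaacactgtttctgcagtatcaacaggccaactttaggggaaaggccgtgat
No motif was found in more than 2 of these 5 windows. Gcnt1 held TATA letters in the first window, the nearer match on the opposite strand 29 to 24 bases before the start, and an Ets core in the second. Fut7 held a Runx core and a GC box. Sele held a gamma-activated site, an AP-1 site and a TATA box whose last base lies 44 bases before the start. Selp held an AP-1 site and a T-box core that overlap in the run TGATTCACACC. Among 32817 windows of the same length the TATA letters were found in 12.4%, the Runx core in 14.0%, the Ets core in 7.69%, the gamma-activated site in 7.01%, the AP-1 site in 6.75%, the T-box core in 3.33% and the GC box in 32.7%. The GC content was 40.4% in the first Gcnt1 window and in Sele and 52.4% to 55.6% in the others, against a median of 52.4% over all windows. A match is a description of the letters and not of a bound site.

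Per kilobase of exon the 6 genes spanned a wide range of levels. In male WT livers St3gal4 stood at 26.6 ± 2.16 CPM per kilobase (library-scaled counts per exon length, SD, n = 7), Selplg at 2.24 ± 0.663, Selp at 0.437 ± 0.134, Gcnt1 at 0.359 ± 0.119, Fut7 at 0.245 ± 0.0790 and Sele at 0.0902 ± 0.0480. Selp and Gcnt1 overlapped in range, as did Gcnt1 and Fut7, and Fut7 and Sele, so only the first 2 places of this order were separated from the next by more than the spread. In male SIRT6-tg livers Gcnt1 was at 0.0810 ± 0.0156, beside Fut7 at 0.0867 ± 0.0485, and Selp stood above both at 0.340 ± 0.0353. The order in both female groups was that of male WT livers.

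**Figure D1:**
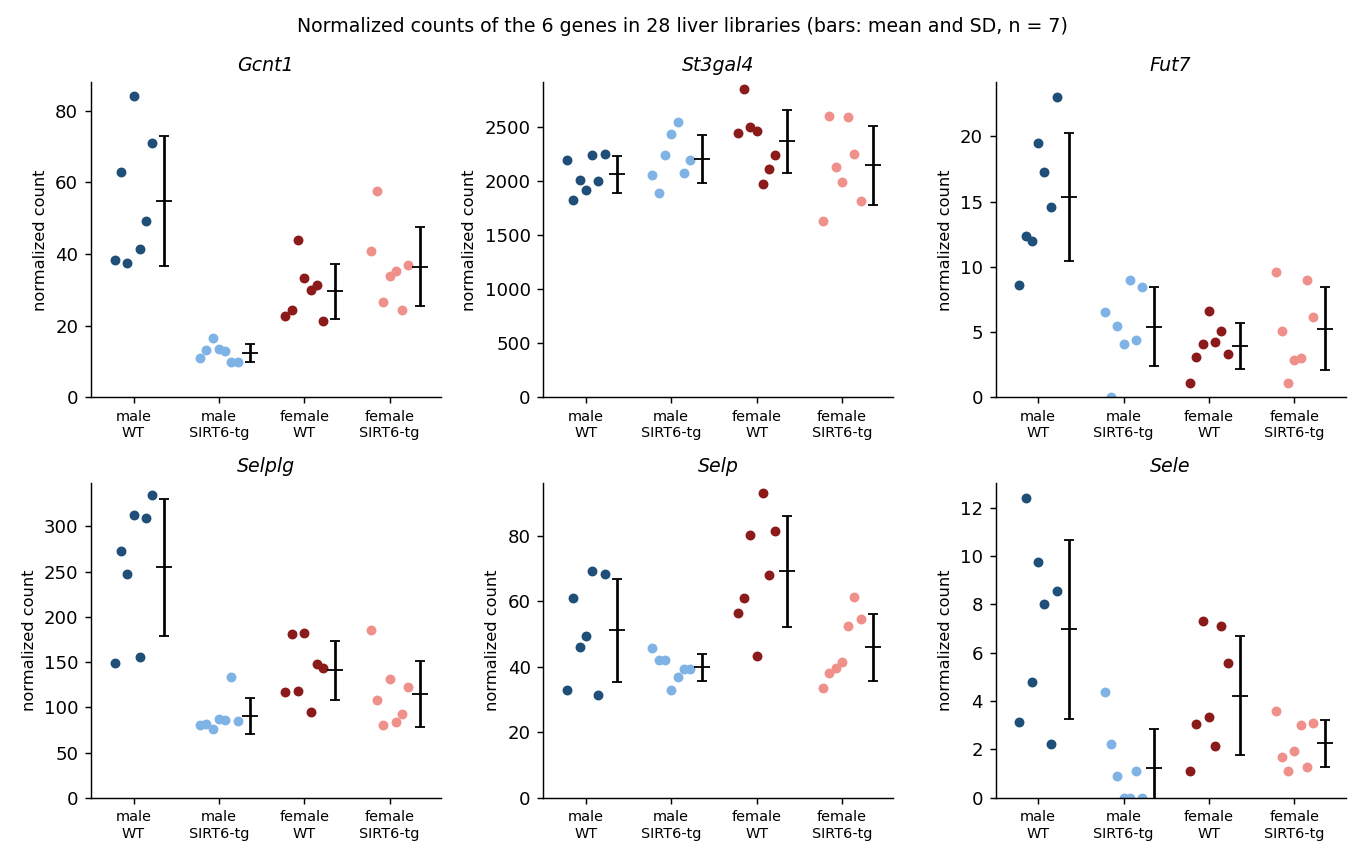
Normalized counts (y axis, from 0) of the 6 genes in each of the 28 liver libraries, by group (x axis), with 1 point per library and bars for the mean and SD (n = 7), cut at 0 where they reach below it. The 7 male SIRT6-tg points of Gcnt1, between 9.86 and 16.5, lie below every point of the other groups, whereas St3gal4 overlaps between all groups. Of all genes 4.37% had every male SIRT6-tg library below every male WT library.

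Gcnt1 (ENSMUSG00000038843.17, chr19:17326141-17372844, minus strand, GRCm38), the branching enzyme, was lowest in male SIRT6-tg livers and highest in male WT livers. Its normalized counts ran from 37.4 through a median of 49.3 to 84.2 in male WT and from 9.86 through 12.9 to 16.5 in male SIRT6-tg livers. In females they ran from 21.2 through 30.0 to 43.8 in WT and from 24.3 through 35.4 to 57.6 in SIRT6-tg livers. All 7 male SIRT6-tg libraries lay below every library of the other groups, and the 2 female groups overlapped. Of all genes 4.37% had every male SIRT6-tg library below every male WT library. The share that also lay below both female groups was not computed. The group means were 54.9 ± 18.1, 12.4 ± 2.39, 29.6 ± 7.77 and 36.5 ± 11.0 normalized counts (SD, n = 7 each) for WT and SIRT6-tg males and then WT and SIRT6-tg females. As log2 fold changes of SIRT6-tg against WT these were -2.13 (SE 0.23) in males, 4.37-fold lower, and 0.30 (SE 0.21) in females. The effect in males minus that in females was -2.43 (SE 0.31). Gcnt1 was chosen by this difference, so its rank of 2 among 21583 genes, ordered by the evidence for it, only restates the choice. Sirt6 itself was at rank 1, with a difference of 3.29 (SE 0.35), and just behind Gcnt1 stood Gbp5, a guanylate-binding protein gene, with -2.79 (SE 0.36). By size alone the difference of Gcnt1 ranked at 517. Male WT livers were above female WT livers by 0.89 on the log2 scale (SE 0.21), and 4 of the 7 male WT libraries exceeded every female WT library. Because these contrasts picked Gcnt1, no test of them is given.

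Among the other 5 genes, 3 fell in male SIRT6-tg livers, none rose, and none passed in females. Selplg, Fut7 and Sele were the genes that fell, whereas St3gal4 and Selp did not pass. These are counts by edgeR's quasi-likelihood test at an adjusted p under 0.05, and over all genes tested 11.0% were called lower and 9.68% higher in the same comparison. The median log2 fold change of the 5 genes was -1.49 against 0.06 over all genes. In females 0 of the 5 passed, 1 had an unadjusted p under 0.05, and DESeq2 called 0 as well. Over all genes 0.0278% were called in females. None of the 6 genes had female groups without overlap, a pattern that 0.0834% of all genes showed in either direction.

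Selplg (ENSMUSG00000048163.13, chr5:113818536-113832644, minus strand), the PSGL-1 gene, fell in males. Normalized counts were 149, 273 and 335 at the lowest, median and highest male WT library and 76.2, 84.5 and 134 in male SIRT6-tg livers, so the 2 groups did not overlap. Of all genes 4.37% had every male SIRT6-tg library below every male WT library, and Selplg was 1 of the 5 tested here that did. Its log2 fold change in males was -1.50 (SE 0.20, 95% interval -1.91 to -1.09, adjusted p = 1.57e-06 by edgeR). In females the counts were 95.3, 144 and 182 in WT and 80.7, 108 and 185 in SIRT6-tg livers, with a log2 fold change of -0.29 (SE 0.20, adjusted p = 1 by edgeR). The effects in the 2 sexes differed by -1.21 (SE 0.28, adjusted p = 0.00812 by edgeR). Selplg was the only one of the 5 genes to pass this test, in which 3.84% of all genes were called lower and 1.20% higher.

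Fut7 (ENSMUSG00000036587.13, chr2:25423267-25426374, plus strand), the fucosyltransferase gene, also fell in males, from few counts. Male WT libraries held 11 to 35 counts and male SIRT6-tg libraries 0 to 9, and the library at 0 allows up to 3 counts. The normalized counts were 8.60, 14.6 and 23 at the lowest, median and highest male WT library and 0, 5.51 and 8.96 in male SIRT6-tg livers, which left 6 of 7 SIRT6-tg libraries below all WT libraries. The log2 fold change was -1.49 (SE 0.38, 95% interval -2.27 to -0.71, adjusted p = 0.00502 by edgeR). Female WT livers ran from 1.09 through 4.06 to 6.65 and female SIRT6-tg livers from 1.11 through 5.09 to 9.62 normalized counts, a log2 fold change of 0.38 (SE 0.45, adjusted p = 1 by edgeR). The difference between the sexes was -1.86 (SE 0.59) and missed the threshold with an adjusted p of 0.0624 by edgeR. It passed with DESeq2 (adjusted p = 0.0158) and by edgeR with library size alone (adjusted p = 0.018). By edgeR it also passed without male WT replicate 1 (adjusted p = 0.0409), male SIRT6-tg replicate 5 (0.0493), female WT replicate 4 (0.0479) or female SIRT6-tg replicate 3 (0.0337). In all other alternatives in which it was tested it missed the threshold, with an adjusted p of up to 0.109 by edgeR.

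St3gal4 (ENSMUSG00000032038.7, chr9:35046576-35119268, minus strand), the sialyltransferase gene, was the most abundant of the 6 and passed no test. Whole liver was measured, and how much of the St3gal4 signal came from leukocytes was not tested. Its medians were 2012 normalized counts in male WT, 2198 in male SIRT6-tg, 2445 in female WT and 2132 in female SIRT6-tg livers, and the ranges of all 4 groups overlapped. The log2 fold change was 0.10 in males (95% interval -0.11 to 0.30, adjusted p = 0.555 by edgeR) and -0.14 in females (95% interval -0.35 to 0.06, adjusted p = 1 by edgeR). St3gal4 shares exon bases with 4930581F22Rik on the other strand. How reads from those bases were counted cannot be told, because the strand setting of the counting is not given in the sources used here.

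The selectin genes of the vessel wall, Sele (ENSMUSG00000026582.6, chr1:164048234-164057677, plus strand) and Selp (ENSMUSG00000026580.16, chr1:164115264-164150026, plus strand), lie close together on chromosome 1, and 1 of them passed a test. Sele, which endothelium transcribes mainly once it is activated, had 2 to 14 counts in male WT and 0 to 4 in male SIRT6-tg libraries, of which 3 were at 0. Its normalized counts were 2.24, 8 and 12.4 at the lowest, median and highest male WT library and 0, 0.918 and 4.37 in male SIRT6-tg livers. Sele fell in males by 2.39 on the log2 scale (SE 0.54, 95% interval -3.50 to -1.29, adjusted p = 0.00163 by edgeR). Without male SIRT6-tg replicate 1, the library with 4 counts, the value was -3.09 in males and the difference between the sexes -2.18 (adjusted p = 0.121 by edgeR). In females it went from a median of 3.33 to 1.93 normalized counts, a log2 fold change of -0.90 (SE 0.52, adjusted p = 0.984 by edgeR), and the effects of the sexes differed by -1.49 (SE 0.78, adjusted p = 0.305 by edgeR).

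Selp, whose protein is stored in endothelial and platelet granules, had its lower values in both SIRT6-tg groups without passing a test. The male WT libraries ran from 31.3 through 49.6 to 69.3 and the male SIRT6-tg libraries from 33 through 39.5 to 45.9 normalized counts, so the SIRT6-tg values lay inside the WT range. The female WT libraries ran from 43.2 through 68.2 to 93.2 and the female SIRT6-tg libraries from 33.7 through 41.6 to 61.5. The log2 fold change was -0.36 in males (SE 0.19, adjusted p = 0.182 by edgeR) and -0.59 in females (SE 0.18, adjusted p = 0.431 by edgeR). Selp was the gene of the 5 with the unadjusted p under 0.05 in females, and its effects in the 2 sexes differed by 0.23 (95% interval -0.31 to 0.77). The antisense genes Gm16548 and Gm16587 share exon bases with Selp, and how reads from those bases were counted cannot be told here.

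**Figure D2:**
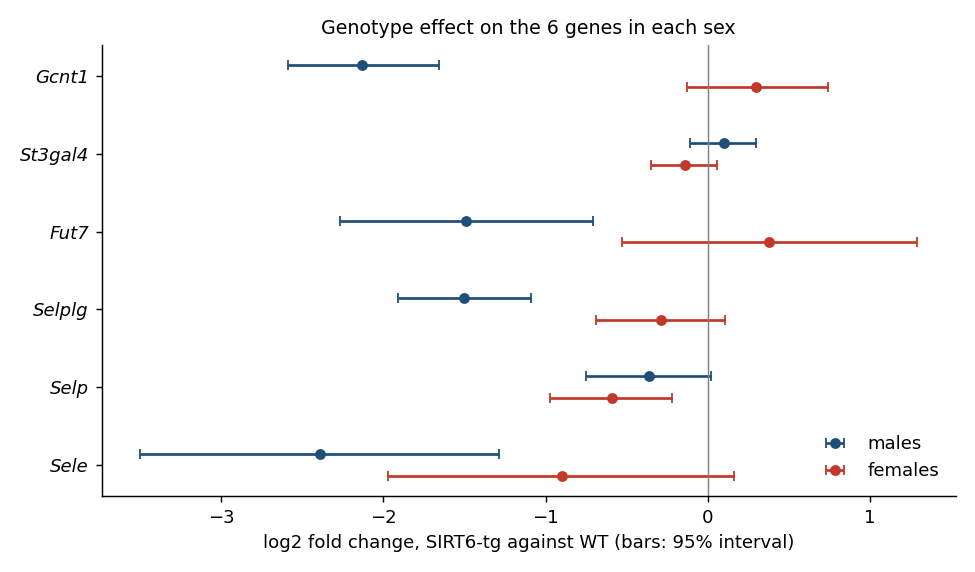
Log2 fold change of SIRT6-tg against WT (x axis) for the 6 genes (y axis) in males and females, with 7 libraries per group and bars for the 95% interval of the edgeR fit. The male intervals of Fut7, Selplg and Sele end below 0 at -0.71, -1.09 and -1.29. Gcnt1, drawn without a test, is at -2.13 in males and 0.30 in females. Its intervals are a description, since Gcnt1 was chosen by these effects.

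Between the sexes in WT livers, Fut7 and Selplg were higher in males. Fut7 was 3.8-fold higher, with all 7 male WT libraries above all female WT libraries (log2 fold change 1.93, SE 0.39, adjusted p = 0.0011 by edgeR). Selplg was 1.81-fold higher, with 5 of the 7 above (0.86, SE 0.19, adjusted p = 0.00273 by edgeR). St3gal4, Selp and Sele did not pass, at log2 fold changes of -0.20, -0.43 and 0.68. Some leukocyte markers were also higher in male WT livers. Ptprc, the pan-leukocyte gene, was 1.64-fold higher (0.72, adjusted p = 0.0035 by edgeR). All 12 T cell markers and 4 of 7 cytotoxic and NK cell markers were higher. Of 10 macrophage markers 1 was higher, and 0 of 6 B cell and 0 of 6 neutrophil markers. The part of these cells in the sex difference was not tested. In this comparison 6.65% of all genes were called higher and 5.71% lower in male WT livers. The share of all genes without overlap between the WT sexes was not computed, so the counts of libraries are a description. The comparison shares the male WT libraries with the genotype comparison in males, so the 2 sets of values are not independent.

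The wider pathway was described with a list of 77 genes in 9 roles, of which 76 remain without Gcnt1 and 71 could be tested. In male SIRT6-tg livers 27 of the 71 fell and 3 rose, where 11.0% of all genes tested were called lower and 9.68% higher, so the number that rose is not above the share over all genes. The median log2 fold change of the list was -0.20 against 0.06 over all genes. The list includes the 5 genes above. By role, 6 of 9 scaffold genes fell, 2 of 5 fucosyltransferase genes and 8 of 10 genes of integrins and their ligands, against 0 of 9 genes of nucleotide sugar supply. These counts stand beside the same 11.0% and include Podxl2, Galnt12 and Pecam1, whose calls were lost in 22, 6 and 12 of 36 alternatives.

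Of 9 tested scaffold genes, which encode the proteins that carry the sugar, 6 fell. The steepest was Spn, the gene of the leukocyte sialomucin CD43, from 127 to 31.3 (log2 fold change -2.03, adjusted p = 3.17e-08 by edgeR). Cd44, whose glycoforms can bind E-selectin, went from 764 to 285 (-1.42, adjusted p = 2.61e-05). Glg1, the gene of the Golgi protein ESL-1, did not pass, at 1934 and 1796 normalized counts.

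The first sugar of an O-glycan is added by the Galnt enzymes, and 4 of the 11 genes tested for this step and for core 1 fell. Galnt3 was at -1.72 (adjusted p = 6.07e-06 by edgeR), Galnt6 at -1.26 (adjusted p = 0.00011) and Galnt7 at -0.63 (adjusted p = 0.00039). C1galt1, the core 1 synthase gene on whose product GCNT1 acts, was at 0.19 and did not pass. For branching and chain extension 2 of 10 fell, B4galt6 at -0.79 (adjusted p = 0.00061 by edgeR) and B3gnt5 at -1.17 (adjusted p = 0.00457), both known mainly for glycolipid synthesis. The other core 2 and branching genes tested, Gcnt2 and Gcnt4, were at -0.04 and 0.16 and did not pass, and Gcnt3 had too few counts to be tested.

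Of 9 sialyltransferase genes 2 fell. St6galnac4 was at -0.98 (adjusted p = 0.000914 by edgeR) and St3gal2 at -0.49 (adjusted p = 0.0213), a call that was lost without male SIRT6-tg replicate 4 (-0.45, adjusted p = 0.05). Of 5 fucosyltransferase genes Fut4, which can also fucosylate selectin ligands, fell beside Fut7, at -1.50 (adjusted p = 0.00137 by edgeR). Of 5 sulfotransferase genes 1 rose, 1 fell and 3 did not pass, with a median log2 fold change of 0.06, that of all genes. Tpst1, which sulfates tyrosines such as those of PSGL-1, rose by 0.49 (adjusted p = 0.000457 by edgeR), and Chst1, from means of 6.31 and 1.97 normalized counts, fell by 1.60 on the log2 scale (adjusted p = 0.032 by edgeR). The call of Chst1 was lost in 8 of 36 alternative analyses, 6 of them omissions of 1 library, with an adjusted p of 0.123 without male WT replicate 3.

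In the supply of nucleotide sugars 2 of 9 genes rose. Slc35a1, the Golgi transporter of CMP-sialic acid, was at 0.29 (adjusted p = 0.0141 by edgeR) and Gfus, which makes GDP-fucose, at 0.39 (adjusted p = 0.037). These 2 calls and that of Tpst1 are lost when counts are scaled by library size alone, where Slc35a1 is at -0.00, Gfus at 0.10 and Tpst1 at 0.20. The calls of Slc35a1 and Gfus were lost in 5 and 16 of 36 alternatives. Firm adhesion follows selectin rolling and is carried by integrins, and 8 of 10 genes of that role fell. Vcam1 was at -2.08 (adjusted p = 2.07e-07 by edgeR), Itgb2 at -1.86 (adjusted p = 7.75e-07) and Itgb7 at -1.63 (adjusted p = 4.35e-07).

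In females 0 of the 71 genes were called by edgeR, 5 had an unadjusted p under 0.05, and DESeq2 called 0. The effects of the sexes differed for 13 of the 71 genes, 12 of them more negative in males, where 3.84% of all genes were called lower and 1.20% higher. By role these were the scaffold genes Selplg (-1.21), Cd44 (-1.19) and Spn (-1.48), the glycosyltransferase genes Galnt3 (-1.40) and St6galnac4 (-1.25), and the sulfotransferase gene Chst1 (-2.57), whose call was lost in 22 of 35 alternatives. The integrin subunit genes Itgal (-1.29), Itgb2 (-1.57), Itga4 (-1.31) and Itgb7 (-1.43) and the endothelial ligand genes Icam1 (-0.99) and Vcam1 (-1.69) completed the 12. Tpst1, a single gene and thus near the share over all genes, had a difference of 0.60 (adjusted p = 0.00883 by edgeR), which became 0.29 (adjusted p = 0.232) with library size alone.

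**Figure D3:**
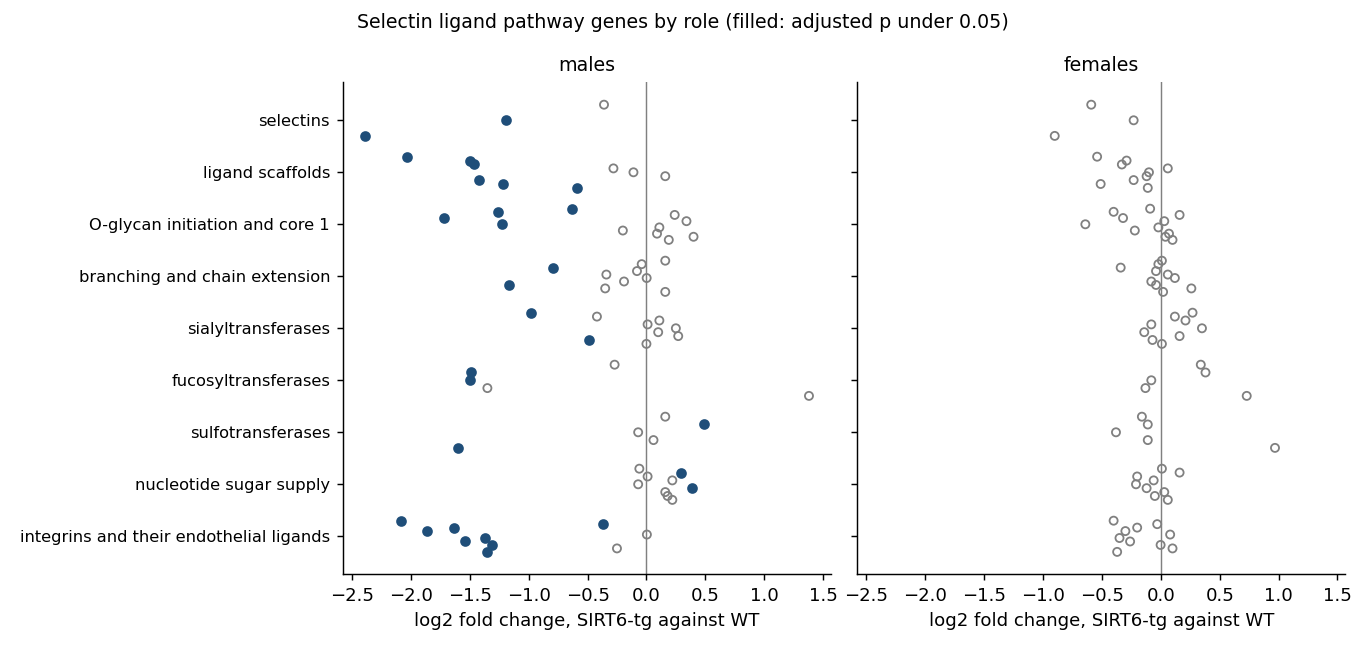
Log2 fold change of SIRT6-tg against WT (x axis) of the 71 pathway genes tested besides Gcnt1, 1 point per gene, by role (y axis), in males (left) and females (right). Filled points passed an adjusted p under 0.05. In males 27 filled points lie left of 0 and 3 right of it, and in females no point is filled.

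Between WT males and WT females 10 of the 71 genes were higher in males and 5 lower, where 6.65% of all genes were called higher and 5.71% lower, so the number that was lower is near the share over all genes. St3gal6, another sialyltransferase gene that can act on selectin ligands, had the lowest adjusted p, with means of 72.6 normalized counts in male and 591 in female WT livers (log2 fold change -3.04, adjusted p = 1.28e-10 by edgeR). It did not pass for genotype in males (0.25) or females (0.35). St6gal1 (-0.46), St3gal1 (-0.53), Fut8 (-0.72) and Fpgt (-0.44) were lower in males as well, while Spn (1.14), Galnt7 (0.75), Galnt6 (0.94), Cmas (0.28), Itgb7 (1.04), Icam1 (0.84) and Itgb2 (1.00) were higher, as were Fut7 and Selplg. The calls of St3gal1 and Cmas were lost in 22 and 9 of 35 alternatives. With library size alone the split was 24 higher and 2 lower, and the calls of St3gal1, St6gal1 and Fpgt were lost.

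Many leukocyte markers and most stellate cell markers fell in male SIRT6-tg livers, while most neutrophil markers did not pass. Ptprc, the pan-leukocyte gene of CD45, had normalized counts of 653 to 1316 in male WT and 252 to 373 in male SIRT6-tg livers, 3.26-fold lower (log2 fold change -1.71, SE 0.17, adjusted p = 3.17e-08 by edgeR). Female WT livers held 453 to 753 and female SIRT6-tg livers 346 to 747, a log2 fold change of -0.27 (adjusted p = 1 by edgeR). In males all 12 T cell markers fell, with summed counts of 543 to 1619 in WT and 158 to 270 in SIRT6-tg livers, and in females the sums were 214 to 610 and 206 to 495. All 10 macrophage markers fell in males too, with sums of 13635 to 44395 in WT and 11104 to 18962 in SIRT6-tg livers. Of the cytotoxic and NK cell markers 5 of 7 fell, namely Prf1, Gzma, Gzmb, Nkg7 and Klrk1, which cytotoxic T cells also express, whereas Ncr1 and Klrb1c, which mark NK cells, did not pass. Of the B cell markers 5 of 6 fell (all but Cd79b), of the stellate cell markers 5 of 6 (all but Colec11) and of the neutrophil markers 1 of 6 tested (Csf3r). Over all genes tested 11.0% were called lower in males, and the single neutrophil call is near that share.

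Markers of the cells that express the selectins of the vessel wall moved less. Of 11 endothelial markers Vwf fell, from a mean of 225 to 135 normalized counts (log2 fold change -0.73, adjusted p = 0.00145 by edgeR), and the sums were 8449 to 11416 in male WT and 8269 to 10521 in male SIRT6-tg livers. Of 8 platelet and megakaryocyte markers 0 passed by edgeR, 2 had an unadjusted p under 0.05, and DESeq2 called 1 (Itgb3), with sums of 308 to 470 and 210 to 332. With library size alone 6 endothelial and 3 platelet markers were called lower. Of the hepatocyte markers 3 of 8 rose (Alb, Fgb and Serpina1c), of which Serpina1c passed with library size alone, and of the 5 erythroid markers Alas2 rose, which did not pass with library size alone. Of 5 cholangiocyte markers 0 passed by edgeR or DESeq2, with 1 at an unadjusted p under 0.05. In females no marker of any list passed by edgeR or DESeq2, with 4 T cell markers and 1 each of the macrophage, endothelial, hepatocyte and cholangiocyte lists at an unadjusted p under 0.05. Over all genes tested 11.0% were called lower and 9.68% higher in males, and the single calls of Vwf and Alas2 are near those shares. No marker was at 0 in every library. The part of these cells in the results was not tested.

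**Figure D4:**
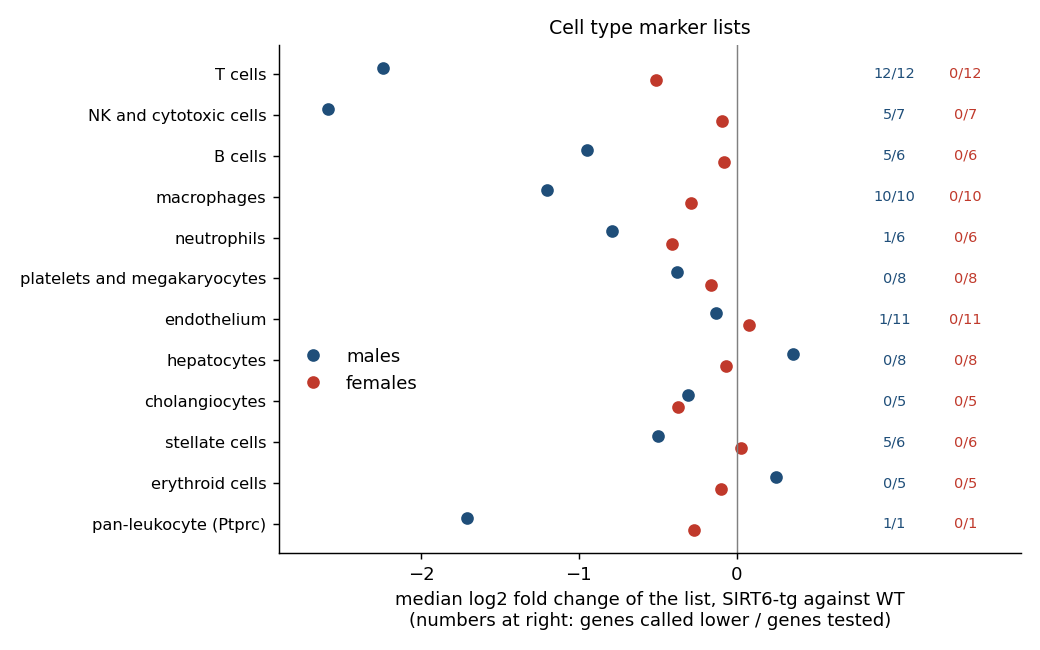
Median log2 fold change of SIRT6-tg against WT (x axis) of each cell type marker list (y axis) in males and females, with the number of genes called lower out of those tested at the right. The T cell list is at -2.24 in males with 12 of 12 lower, and the endothelial list at -0.13 with 1 of 11 lower. Over all genes tested 11.0% were called lower in males.

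Set against Ptprc, the counts of Gcnt1, Selplg and Fut7 differed less between the male groups. Gcnt1 had 53.5 ± 8.99 counts per 1000 Ptprc counts in male WT and 40.6 ± 11.4 in male SIRT6-tg livers (SD, n = 7), with ranges of 42.0 to 65.6 and 26.5 to 57.7 that overlapped. In female WT livers it had 50.3 ± 21.2 and in female SIRT6-tg livers 72.5 ± 22, and the range in the latter, 45.3 to 117, overlapped that of male SIRT6-tg livers as well. Selplg stood at 246 ± 24.5, 288 ± 51.5, 225 ± 23.2 and 224 ± 50.4 for WT and SIRT6-tg males and then WT and SIRT6-tg females. Fut7 stood at 15.4 ± 5.40 and 18 ± 9.83 in the male groups and 6.39 ± 2.79 and 11.0 ± 8.09 in the female groups. Selplg and Fut7 per Ptprc were thus no lower in the mean in male SIRT6-tg than in male WT livers. The male SIRT6-tg ratios of Fut7 ran from 0 to 28.2 and rest on 0 to 9 Fut7 counts per library, so that mean is imprecise. For Fut7 the male WT range of 10.7 to 26.5 lay above the female WT range of 2.11 to 9.46 on this scale also. These ratios were not tested, and not every cell with Ptprc carries these transcripts.

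**Figure D5:**
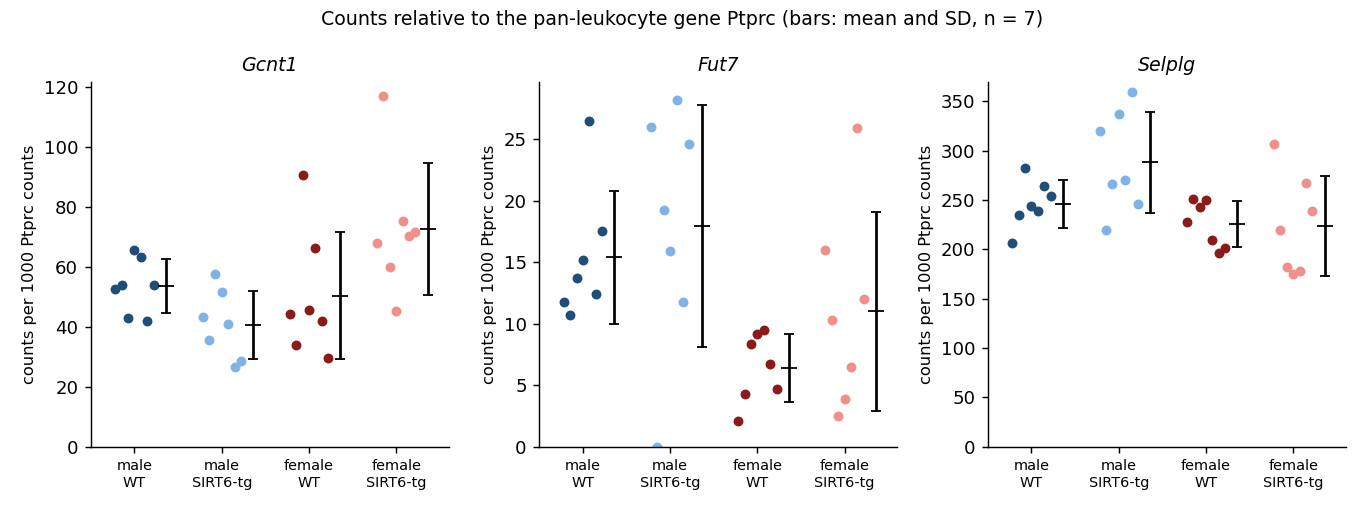
Counts of Gcnt1, Fut7 and Selplg per 1000 counts of Ptprc (y axis, from 0) in each of the 28 libraries by group (x axis), with 1 point per library and bars for the mean and SD (n = 7). The male WT and male SIRT6-tg points overlap for all 3 genes, and the Fut7 points of male WT lie above those of female WT.

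The genes whose levels followed Gcnt1 most closely over the 28 libraries, among 14050 genes with a mean of 10 or more normalized counts, were Cd274, the gene of PD-L1 (Pearson r = 0.92), Samhd1, a dNTP hydrolase gene (0.91), and the guanylate-binding protein genes Gbp5, Gbp6 and Gbp9 (each 0.90). These values carry the differences between the 4 groups. After subtraction of group means the top genes were Arhgef2 (0.72), Gbp9 (0.71), Gvin1 (0.70), Slamf7 (0.70) and Parp12 (0.70), so Gbp9 was in both sets. Ptprc reached 0.82 over all libraries, at rank 105, and 0.33 within groups, at rank 1339. Among the other genes of the ligand, Selplg reached 0.71 and 0.32 and St3gal4 -0.16 and -0.01. The libraries share 1 count table and its scaling, and the correlations are descriptions.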

How the data were processed

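Liver RNA was measured by RNA-seq in 28 mice, grouped by the sex and genotype in their labels. Per the labels and methods, the authors deposited raw counts per gene, from NEBNext Ultra single-end reads aligned to mm10 with STAR 2.5.0a and counted on Gencode genes with HTSeq; all columns were matched to a sample. The members and lists were chosen with earlier results of these data known. Genes with a mean count of 0.5 or more, scaled by size factors of DESeq2, were kept. TMM scaling was followed by the quasi-likelihood test of edgeR 4.0.16 in R 4.3.3, with 28 libraries and 4 groups in 1 fit, robust estimation, no covariates and Benjamini-Hochberg adjustment over 21583 genes. The threshold was an adjusted p of 0.05. SIRT6-tg was compared with WT in each sex, the 2 effects were compared with each other, and WT males with WT females. The procedure was tested on simulated counts in which few genes changed, as many up as down. None of those genes had mean counts as low as Fut7 and Sele, so that test does not cover them. Symbols and coordinates came from Gencode vM21 on GRCm38, which shares 43749 versioned identifiers with the table, and start sites from RefSeq, with windows for 5 of the 6 genes.

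Named were the 6 genes, up to 3 genes per role with the lowest adjusted p in males, those past the threshold in females or in the difference between the sexes, up to 3 per role between WT sexes, and the 5 genes most correlated with Gcnt1, on log2 CPM with a prior count of 2. C1galt1, Glg1, Gcnt2, Gcnt3 and Gcnt4 fall outside this rule and were picked with their values known. Replicates are separate libraries, and labels do not say how mice were sampled. The p-values set each difference against the spread between these libraries. Per the study's methods WT and transgenic littermates shared cages, but the labels give no litter or cage, so neither was in the fit. Over 84 pairs of same-group libraries the chi-square per gene was 12.2 or more, above sampling noise, so all were kept. A count of 0 allows up to 3 counts, for counting error only. Same-numbered libraries did not deviate together, so replicate numbers were not used as pairs. Other scalings, other filters, DESeq2 1.42.0, a replicate block, single-sex fits and the omission of each library were tried as alternatives. The values of 1 gene of the pathway list are not reported here, although the list's counts include it.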

Additional observations from a re-analysis of the deposited data

Results flagged for a closer look

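For 13 genes of the pathway the genotype effect differed between the sexes, tested as the effect in males minus that in females on the log2 scale with edgeR. The differences were -1.21 for Selplg, -1.19 for Cd44, -1.48 for Spn, -1.40 for Galnt3, -1.25 for St6galnac4, -2.57 for Chst1, -1.29 for Itgal, -1.57 for Itgb2, -1.31 for Itga4, -1.43 for Itgb7, -0.99 for Icam1, -1.69 for Vcam1 and 0.60 for Tpst1. Ptprc, the pan-leukocyte gene, differed by -1.43 in the same test. The level of Sirt6 also differed between male and female SIRT6-tg livers, so sex and the amount of transgene transcript cannot be told apart in these differences.

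The highest male SIRT6-tg library of Selplg stood apart from the other 6 of its group at 134 normalized counts, by Dixon's criterion. It was 1 of 24 groups checked over the 6 genes, and about 1 group in 20 is marked by chance. The fall of Selplg in males held when each library was left out in turn, with log2 fold changes of -1.63 to -1.45.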

How the results depend on the processing

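The direction and call of Selplg, Fut7 and Sele in males held under every alternative in which they were tested; filterByExpr leaves Fut7 and Sele out as too low. Scaling by library size alone shifts all genes in males, whose median log2 fold change moves from 0.06 to -0.22, and values there are relative to that shift. St3gal4 then reverses to -0.18 in males and to -0.05 in the difference between the sexes, Selp reverses to -0.06 in that difference, and Selp in males is called at -0.64 (adjusted p = 0.0154). The difference of Fut7 between the sexes is called with library size alone (-2.14, adjusted p = 0.018) and with DESeq2 (-1.94, adjusted p = 0.0158). Library size alone also moves the pathway genes whose effect differs between the sexes from 13 to 22, all such genes from 1089 to 1863, and the genes that differ between WT sexes from 2669 (53.8% higher in males) to 4212 (86.8% higher). The share called higher among all genes in males, 46.8%, becomes 35.7% with RLE, 26.2% with upper-quartile and 4.89% with library size alone. All genes called in females, 6, become 2 with the sexes fitted separately and 42 with DESeq2, and 3 to 16 when 1 library is left out, with 16 without female SIRT6-tg replicate 2. With a replicate block 27 pathway genes were called in males against 30 without it, and 4209 of all genes against 4467. Correlations of same-numbered libraries lay between -0.118 and 0.229 in males and between -0.283 and 0.271 in females. Fut7 and Sele rest on at most 35 and 14 counts per library, which limits their precision.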
